A study of Mus musculus with 6 samples.

Results

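The unfolded protein and amino acid stress response was followed through 36 genes, listed by symbol for their known roles, out of the 41126 genes of the table. They are 11 chaperones and co-chaperones of the endoplasmic reticulum (ER), 3 protein disulfide isomerases, 4 genes of ER-associated degradation, 4 genes of the stress sensors and Xbp1, Atf4 with 4 of its stress targets, and 9 genes of amino acid synthesis and transport. RNA-seq was performed on mouse dermal fibroblasts that were cultured from ventral skin at postnatal day 4, from animals of mixed CD1 and C57Bl6 background and were harvested 72 h after infection. The 3 Control cultures received an adenovirus carrying GFP (AdGFP) and the 3 GOF (gain of function) cultures an adenovirus carrying Cre (AdCre), which removes exon 3 of Ctnnb1 from 1 allele and leaves a stabilized β-catenin (Ctnnb1 delta-ex3/+). The labels write +/+ for the Control genotype and name adCre at an MOI of 366 to 500 for 6 h in every treatment entry. The study instead describes Control cells as carrying the same unrecombined allele. Its methods give an MOI of 366 for AdGFP and of 366 to 500 for AdCre. By the labels, Control replicates 0 and 2 came from animals that also gave a GOF culture, and so carried that allele. Virus and β-catenin state change together between the groups and cannot be told apart here.

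The 6 libraries held between 35980831 and 42834467 fragments. The labels name 4 animals. Animal 9852 supplied Control replicate 0 as well as GOF replicate 2, animal 9845 supplied Control replicate 2 as well as GOF replicate 0, and the remaining cultures came from an animal each. Axin2, a direct target of β-catenin, was at 0.144, 0.136 and 0.177 FPKM (fragments scaled by transcript length and library size) in Control and at 19.2, 14.4 and 18.7 in GOF, in the direction of the labels. The 8 fibroblast markers examined summed to 2990 to 3800 FPKM in Control and 2460 to 2990 in GOF, with Dcn and Col1a2 lower (log2 fold changes of -1.67 and -1.18, edgeR adjusted p = 0.00584 and 0.0375) and Vim higher (0.70, edgeR adjusted p = 0.028). The keratinocyte markers Krt1, Krt5, Krt10 and Krt14 were each under 1 FPKM in all libraries. The summed skeletal muscle markers stood at 23.3 to 27.4 FPKM in Control and 138 to 172 in GOF, nearly all of it Acta1, with Myod1 and Myog under 1 FPKM. The summed macrophage markers stood at 2.4 to 3.33 and 4.33 to 7.54 FPKM, with Ptprc and Adgre1 under 1 FPKM and Csf1r higher in GOF (log2 fold change 1.52, edgeR adjusted p = 0.00186). Endothelial markers summed to 2.79 to 3.4 and 2.36 to 4.17 FPKM, with Kdr higher and Tek lower (log2 fold changes of 1.77 and -2.27, edgeR adjusted p = 0.011 and 0.019). Those of Schwann cells and melanocytes summed to 6.4 to 6.92 and 4.68 to 5.85 FPKM. The adipocyte markers summed to 7.18 to 8.91 FPKM in Control and 1.8 to 3.17 in GOF, with Adipoq and Plin1 under 1 FPKM, and those of pericytes and smooth muscle to 1570 to 2180 and 1800 to 3380, nearly all Acta2. The part of these cell types in the results was not tested. No marker was at 0 in every library.

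Proteins destined for secretion, collagen among them, fold in the ER with the help of chaperones and disulfide isomerases. When unfolded protein builds up, 3 sensors in the ER membrane respond: Ire1 (Ern1) splices the mRNA of the transcription factor Xbp1, Atf6 is cut to release a transcription factor, and Perk (Eif2ak3) phosphorylates eIF2. Phosphorylated eIF2 slows translation in general but raises that of Atf4, which also answers to amino acid shortage through other kinases and activates genes that make and import amino acids. Dermal fibroblasts secrete much matrix and depend on this machinery.

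Promoters of genes in these pathways can carry short elements through which these factors act. The search covered 250 bases before to 50 after the start of transcription in the RefSeq sequences (GRCm38.p6) and took either strand. Of the 36 genes, 32 have an entry there. Atf6, Hyou1, Manf and Slc7a5 have none, so their promoters were not searched. The ER stress response element (ERSE, CCAAT and CCACG separated by 9 bases), bound by Atf6 and Xbp1, was found in 8 of the 32 genes and in 0.119% of all 32851 promoters. Those genes were Hspa5, Hsp90b1, Calr, Canx, Pdia6, Dnajc3, Creld2 and Syvn1. ERSE-II, made of ATTGG and CCACG separated by 1 base, was found in Dnajb11 and Herpud1 and in 0.0365% of all promoters. The element bound by Atf4 with a C/EBP partner (CARE, TGATG and AA separated by 1 base) was found in Trib3, Chac1, Asns, Pycr1, Slc7a11 and Herpud1, against 3.97% of all promoters. The Xbp1 element TGACG directly followed by TGG, which shares CGTGG with the reverse strand of ERSE, and the TCF/LEF element CTTTG directly followed by AT, through which β-catenin acts, were in 0.676% and 3.73% of all promoters and in 0 of the 32 genes. A match is a stretch of letters in this window and says nothing of binding.

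The sequences below, with the matched letters in capitals, show the ERSE of Hspa5, both elements of Herpud1, the ERSE-II of Dnajb11 and the CARE of Trib3, Asns and Chac1. They are given because Herpud1, Dnajb11 and Trib3 changed past the test, and Hspa5, Asns and Chac1 are genes with an ERSE or a CARE that did not pass. The matches of Dnajb11 and Trib3 lie after the start.
Hspa5, chr2:34772010-34772058, plus strand: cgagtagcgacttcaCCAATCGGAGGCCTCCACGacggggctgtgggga
Herpud1, chr8:94386302-94386402, plus strand: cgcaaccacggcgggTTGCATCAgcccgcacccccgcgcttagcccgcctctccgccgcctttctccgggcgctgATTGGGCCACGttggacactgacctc
Dnajb11, chr16:22857843-22857871, plus strand: ccggcggcgATTGGCCCACGcctggctgc
Trib3, chr2:152344029-152344056, minus strand: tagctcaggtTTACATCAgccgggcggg
Asns, chr6:7693210-7693247, minus strand: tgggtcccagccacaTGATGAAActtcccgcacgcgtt
Chac1, chr2:119351034-119351071, plus strand: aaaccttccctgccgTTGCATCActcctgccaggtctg

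Most of these genes did not change past the test in GOF fibroblasts. Of the 36 genes, 2 rose (Atf6 and Dnajb11) and 3 fell (Herpud1, Atf4 and Trib3) at an adjusted p under 0.05 in edgeR's quasi-likelihood test on the fragment counts, adjusted by Benjamini-Hochberg over all 15462 genes tested. All 36 were among the genes tested. The test has no term for animal, so its SE, intervals and calls do not use the pairing of cultures by animal. Among all genes tested, 11.1% rose and 10.2% fell, against 5.56% and 8.33% of the 36. In the same test, Trib3 was the one gene of the 36 that also passed the study's threshold of a fold change over 2, which 12.3% of all genes did in either direction. The median log2 fold change of the 36 was -0.09 and that of all genes tested was -0.02, with 15 estimates above 0 and 21 below. In FPKM, every GOF library lay above every Control library for 7 of the 36 genes, or 19.4%, where 20.3% of all genes did so. Every GOF library lay below every Control library for 8, or 22.2%, where 19.2% of all genes did so. These shares are close to those of the table as a whole. In such bulk samples fewer cells of a type and less RNA per cell cannot be told apart.

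**Figure D1:**
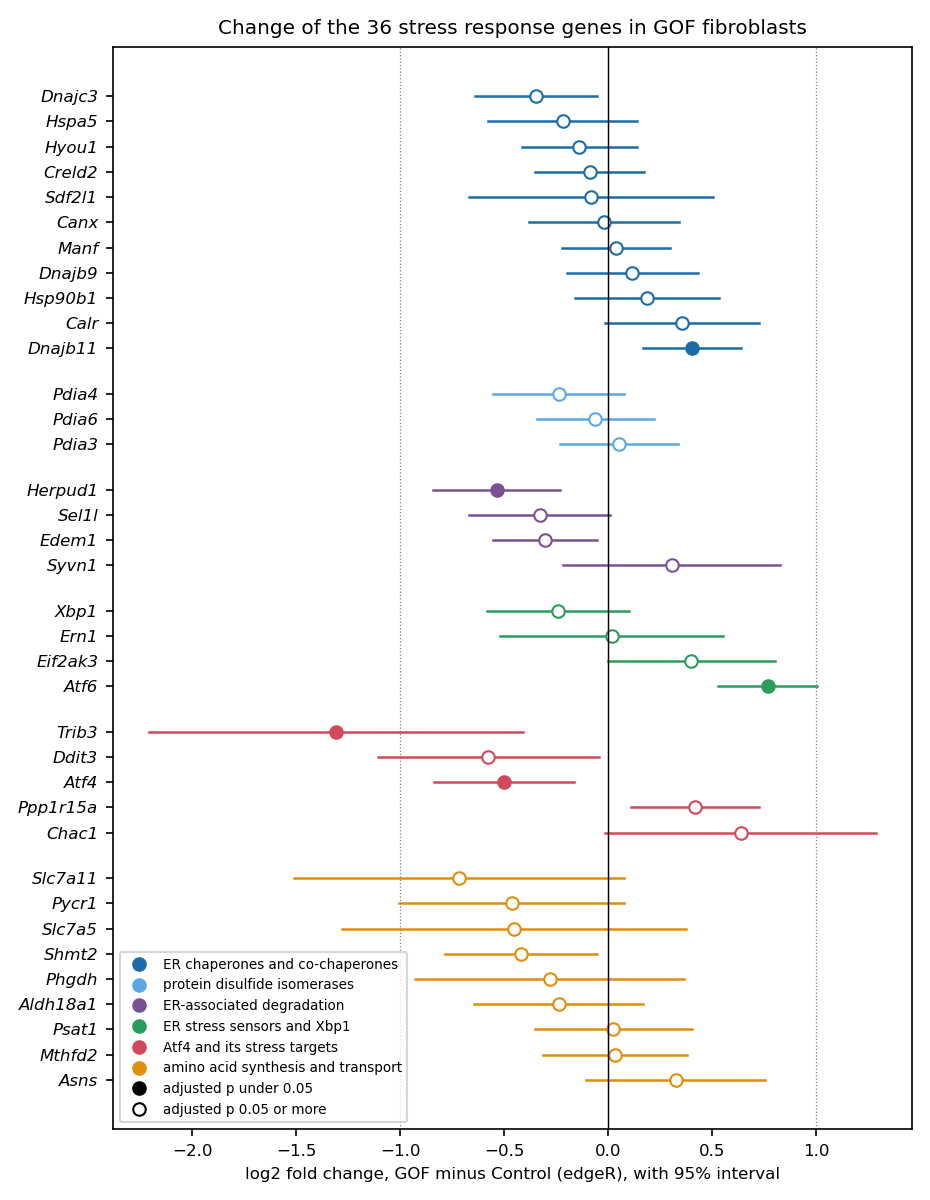
The log2 fold change (x axis, GOF minus Control, edgeR) of each of the 36 genes with its 95% interval, grouped by role and coloured by group; filled points have an adjusted p under 0.05 and dotted lines mark a 2-fold change. The 5 filled points are Dnajb11 and Atf6 right of 0, and Herpud1, Atf4 and Trib3 left of it.

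Most of the chaperones and co-chaperones, which hold and refold proteins in the ER lumen, did not pass the test. Of the 11, 1 rose and 0 fell, beside 11.1% and 10.2% of all genes tested. A share cannot be read from so few genes. Their median log2 fold change was -0.02, with estimates from -0.35 to 0.41. Dnajb11 (ERdj3, a co-chaperone of Hspa5, chr16:22857845-22879634, plus strand) was at 57.6, 55.1 and 54.1 FPKM in Control and at 71.6, 74.2 and 76.7 in GOF, so that the groups did not overlap. Its log2 fold change was 0.41 ± 0.10 (SE, n = 3 libraries per group, edgeR adjusted p = 0.0278), and within the animals that gave both cultures the log2 ratios of FPKM were 0.40 and 0.42. With animal as a block, a fit whose group difference rests on those animals alone, the change was 0.40 and the edgeR adjusted p = 0.0706. The edgeR adjusted p was 0.0618 without a filter on low counts. The call was kept without Control replicate 0 and was lost when any of the other 5 libraries was left out, with edgeR adjusted p from 0.0628 to 0.124.

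Hspa5 (BiP, the main Hsp70 of the ER, whose ERSE is printed above) was at 480, 452 and 406 FPKM in Control and at 359, 348 and 450 in GOF. GOF replicate 2 lay among the Control values, and the log2 fold change of -0.22 had an interval of -0.58 to 0.14 (edgeR adjusted p = 0.352). Hsp90b1 (Grp94), with 302, 309 and 322 FPKM in Control and 386, 335 and 342 in GOF, and the lectin chaperone Calr, with 405, 498 and 507 against 599, 585 and 641, had no overlap between groups. Their log2 fold changes of 0.19 (-0.16 to 0.53) and 0.35 (-0.01 to 0.72) did not pass the test (edgeR adjusted p = 0.413 and 0.157). Canx, the membrane-bound partner of Calr, was at means of 320 FPKM in both groups, and its log2 fold change was -0.02 (-0.38 to 0.34). Dnajc3 (p58IPK, an inhibitor of eIF2 kinases as well as a co-chaperone) was at 51.04, 53.4 and 50.3 FPKM in Control and at 35.6, 36.9 and 49.7 in GOF, with GOF replicate 2 just under the Control values. Its log2 fold change was -0.35 (edgeR adjusted p = 0.0923).

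The remaining 5 chaperone genes, Dnajb9 (ERdj4), Hyou1 (Grp170), Manf, Creld2 and Sdf2l1, are often used as readouts of ER stress, and their estimates lay between -0.14 and 0.12. Manf was at 129, 117 and 118 FPKM in Control and at 117, 123 and 122 in GOF. Creld2 was at 24.5, 22.1 and 22.9 FPKM and at 22.5, 23.0 and 22.3. For Sdf2l1, 1 library stood out, Control replicate 0 with 29.7 FPKM against 17.4 to 23.8 in the other 5. The 95% intervals of all 10 chaperone genes that did not pass lay within a 2-fold change either way, and those of 7 within a 1.5-fold change.

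The disulfide isomerases, which form and rearrange the disulfide bonds of secreted proteins, included 0 of 3 genes that passed. Of all genes tested, 11.1% rose and 10.2% fell, and a share cannot be read from 3 genes. Pdia3 (ERp57) was at 263, 261 and 260 FPKM in Control and at 259, 254 and 297 in GOF. Pdia6 was at 200, 194 and 191 FPKM against 175, 189 and 198, and Pdia4 at 140, 151 and 151 against 112, 121 and 145. Their log2 fold changes were 0.05 (-0.23 to 0.33), -0.06 (-0.34 to 0.22) and -0.24 (-0.55 to 0.08), all within a 1.5-fold change either way.

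Among the genes of ER-associated degradation, by which misfolded proteins are drawn out of the ER and destroyed, 1 of 4 fell and 0 rose, with a median log2 fold change of -0.32. Over all genes tested, 10.2% fell and 11.1% rose. Herpud1 (Herp, a scaffold of the degradation complex, chr8:94386438-94395377, plus strand) was at 66.4, 64.8 and 63.6 FPKM in Control and at 41.5, 41.6 and 52.8 in GOF. All GOF libraries were below all Control libraries, with GOF replicate 2 the highest of them, and the log2 fold change was -0.54 ± 0.13 (SE, n = 3 per group, edgeR adjusted p = 0.0263). The call was lost without Control replicate 1, GOF replicate 0 or GOF replicate 1 (edgeR adjusted p = 0.0912, 0.102 and 0.0864).

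Edem1, a lectin that hands misfolded glycoproteins to degradation, was at 27.1, 27.3 and 26.1 FPKM in Control and at 21.0, 19.7 and 24.9 in GOF. Sel1l, the adaptor of the ubiquitin ligase Syvn1 (Hrd1), was at 33.8, 41.0 and 42.3 FPKM against 29.5, 26.8 and 32.9. In both genes the groups did not overlap, but the log2 fold changes of -0.30 and -0.33 did not pass (edgeR adjusted p = 0.0857 and 0.155). Without Control replicate 0, Sel1l passed (edgeR adjusted p = 0.0291). Syvn1 itself was low, at 4.07, 3.37 and 2.81 FPKM and at 4.12, 3.19 and 3.81, and its estimate of 0.31 had a wide interval (-0.21 to 0.83).

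Of the sensors, Atf6 was the gene of the whole list with the smallest adjusted p. Atf6 (chr1:170704674-170867771, minus strand) was at 13.7, 14.8 and 15.5 FPKM in Control and at 25.2, 24.1 and 25.8 in GOF, a gap between the groups much wider than the spread within either. Its log2 fold change was 0.77 ± 0.10 (SE, n = 3 per group, 95% interval 0.53 to 1.01, edgeR adjusted p = 0.00259), and within animals the log2 ratios of FPKM were 0.70 and 0.91. It was the one gene of the 36 that passed in all 15 alternative fits, leaving out each library included, with log2 fold changes from 0.71 to 0.81. The change was under the study's threshold of 2-fold. Atf6b, the paralog of Atf6, was at a mean of 13.7 FPKM in Control and 12.99 in GOF (log2 fold change -0.12, edgeR adjusted p = 0.707).

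The other sensors did not pass. Eif2ak3 (Perk) was at 7.67, 10.8 and 10.3 FPKM in Control and at 12.9, 11.04 and 14.6 in GOF, without overlap, and its log2 fold change was 0.40 (interval -0.002 to 0.80, edgeR adjusted p = 0.145). Ern1 (Ire1) was at 2.03, 3.23 and 3.63 FPKM and at 3.28, 2.60 and 2.35, with an estimate of 0.02 (-0.52 to 0.55). Xbp1 was at 89.1, 68.3 and 71.5 FPKM in Control and at 62.2, 72.7 and 60.8 in GOF (log2 fold change -0.24, -0.58 to 0.10). The gene-level table does not separate spliced from unspliced Xbp1, nor cut from uncut Atf6 protein, so these values are mRNA levels and not the activity of the sensors.

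**Figure D2:**
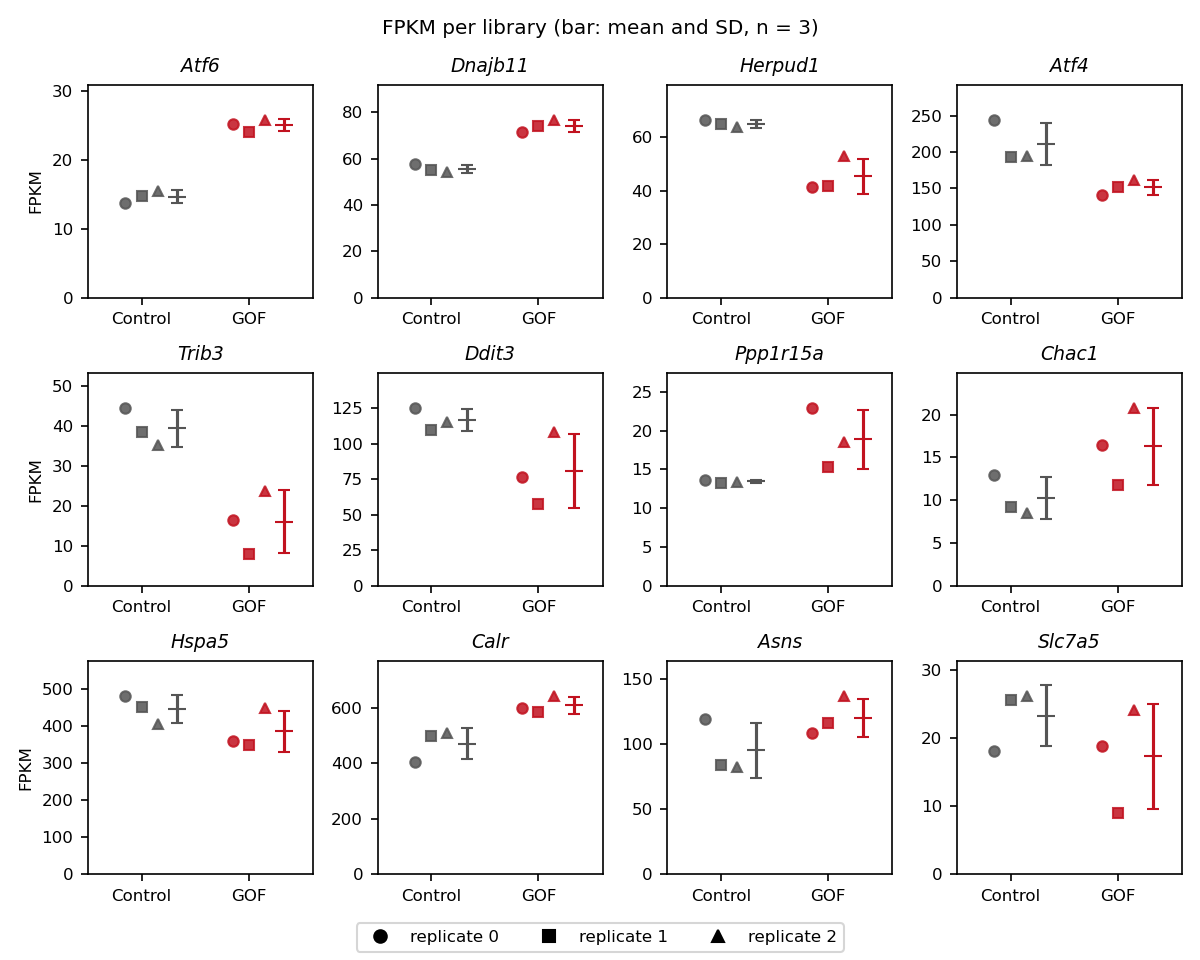
FPKM (y axis, linear and starting at 0) of 12 of the genes in each library, with the mean and SD of each group (n = 3) beside the points; circles, squares and triangles are replicates 0, 1 and 2. Atf6 and Dnajb11 form tight separate groups, whereas in Trib3, Ddit3 and Slc7a5 the GOF libraries spread, with replicate 1 lowest and replicate 2 highest.

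Of Atf4 and its 4 stress targets, 0 rose and 2 fell, with estimates from -1.31 to 0.64. Among all genes tested 11.1% rose and 10.2% fell, and a share cannot be read from so few genes. Atf4 (chr15:80255184-80257541, plus strand) was at 244, 193 and 195 FPKM in Control and at 141, 152 and 162 in GOF, without overlap. The log2 fold change was -0.50 ± 0.14 (SE, n = 3 per group, edgeR adjusted p = 0.0448), with within-animal log2 ratios of -0.46 and -0.59. The call stood close to the threshold: it was kept without Control replicate 0 and lost when any of the other 5 libraries was left out, with edgeR adjusted p from 0.0597 to 0.158. It was also lost without a filter on low counts (edgeR adjusted p = 0.0527) and when limma was run on log2(FPKM + 1) or log2(FPKM + 0.1) (limma adjusted p = 0.0643 and 0.0632).

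Trib3, a pseudokinase that restrains Atf4 and is induced by it (chr2:152337422-152344032, minus strand), was at 44.3, 38.5 and 35.2 FPKM in Control. In GOF it was at 16.3, 7.89 and 23.6, below every Control value but spread 3.0-fold between libraries. The log2 fold change was -1.31 ± 0.39 (SE, n = 3 per group, 95% interval -2.21 to -0.41, edgeR adjusted p = 0.0493), and within animals the log2 ratios were -1.11 and -0.91. The call was lost without any 1 Control library or without GOF replicate 0 (edgeR adjusted p from 0.0775 to 0.146), and among genes with at least 1 FPKM in 3 libraries (edgeR adjusted p = 0.0531).

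Ddit3 (CHOP), the factor linked to cell death in prolonged stress, was at 125, 109 and 115 FPKM in Control and at 76.7, 57.3 and 109 in GOF. The groups did not overlap by a narrow margin, since GOF replicate 2 reached 109 (108.5 against a lowest Control value of 109.3), and the log2 fold change of -0.58 did not pass (edgeR adjusted p = 0.117). It passed without GOF replicate 2 (edgeR adjusted p = 0.0154). Ddit3 overlaps Mars on the other strand, and since use of the strand in counting is not given in the sources used here, reads of the overlapping part cannot be assigned with certainty. An annotated gene on the other strand overlaps 15 of the 36 genes, Dnajb11 and Herpud1 among them. Calr and Phgdh each have a named pseudogene with which reads could be shared.

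The other 2 targets had estimates above 0. Ppp1r15a (Gadd34), which brings a phosphatase to eIF2 and so ends the response, was at 13.7, 13.3 and 13.4 FPKM in Control and at 22.9, 15.3 and 18.5 in GOF, without overlap. Its log2 fold change was 0.42 (0.11 to 0.72) with an edgeR adjusted p = 0.0602. DESeq2, run as an alternative, gave an adjusted p = 0.0221. Chac1, which degrades glutathione, was at 12.99, 9.25 and 8.52 FPKM in Control and at 16.4, 11.8 and 20.7 in GOF, with overlap between the groups. Its log2 fold change was 0.64 (-0.01 to 1.29, edgeR adjusted p = 0.15). With animal as a block the change was 0.84 and the edgeR adjusted p = 0.0157. Within the animals the log2 ratios of FPKM were 0.95 and 0.67. Both Trib3, which fell, and Chac1, which did not pass, carry a CARE in the window searched.

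The genes of amino acid synthesis and transport, which Atf4 is known to activate when amino acids run short, included 0 of 9 that passed. Of all genes tested, 11.1% rose and 10.2% fell, and a share cannot be read from 9 genes. The median log2 fold change of the 9 was -0.28. With animal as a block that median was -0.02, and leaving out 1 library gave -0.48 to -0.14, with the value farthest from 0 without GOF replicate 2 and the nearest without GOF replicate 1. In the serine and one-carbon pathway, Phgdh, its first enzyme, was at 154, 82.1 and 81.5 FPKM in Control and at 81.0, 81.4 and 108 in GOF. Control replicate 0 stood far above the other Control libraries, and GOF replicate 2, from the same animal, was the highest GOF library. Without Control replicate 0, the log2 fold change of Phgdh was 0.08 in place of -0.28. In Psat1, the next enzyme, the same libraries were highest in each group, with 91.4, 69.2 and 69.9 FPKM against 73.7, 71.6 and 91.9. Mthfd2, a mitochondrial one-carbon enzyme, was at 52.7, 42.2 and 43.3 FPKM and at 47.3, 40.0 and 56.0. The log2 fold changes of these 3 genes were -0.28 (-0.93 to 0.37), 0.03 (-0.35 to 0.40) and 0.03 (-0.31 to 0.38). Shmt2, which splits serine in mitochondria, was at 25.6, 24.5 and 21.2 FPKM in Control and at 18.2, 16.6 and 19.8 in GOF. Those groups did not overlap, and the log2 fold change was -0.42 (-0.78 to -0.05, edgeR adjusted p = 0.101).

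Asns, which makes asparagine and carries a CARE, was at 119, 83.8 and 82.0 FPKM in Control and at 108, 116 and 136 in GOF. Control replicate 0 lay among the GOF values. The log2 fold change was 0.32 (-0.11 to 0.75, edgeR adjusted p = 0.256), and without Control replicate 0 Asns passed with an edgeR adjusted p = 0.0239. The enzymes of proline synthesis, an amino acid abundant in collagen, were Aldh18a1 with 31.2, 44.6 and 42.1 FPKM in Control and 34.0, 29.5 and 38.1 in GOF, and Pycr1 with 12.9, 8.78 and 9.56 against 7.27, 6.51 and 9.73. Their log2 fold changes were -0.24 (-0.64 to 0.17) and -0.46 (-1.003 to 0.07). Aldh18a1 differed in sign between animals, with log2 ratios of -0.31 and 0.29.

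The transporters varied widely between libraries. Slc7a5 (Lat1, an importer of large neutral amino acids) was at 18.1, 25.6 and 26.2 FPKM in Control and at 18.9, 8.95 and 24.2 in GOF, a 2.71-fold spread within GOF. Slc7a11 (xCT, which imports cystine) was at 2.01, 3.54 and 1.62 FPKM and at 1.06, 1.19 and 2.23. Their log2 fold changes were -0.45 (-1.28 to 0.37) and -0.72 (-1.51 to 0.08), with intervals that reach past a 2-fold fall. For Slc7a5 the within-animal log2 ratios were -0.47 and 0.42.

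Of the 31 genes that did not pass, 26 had a 95% interval within a 2-fold change either way and 15 within a 1.5-fold change. The 5 with wider intervals were Chac1, Ddit3, Pycr1, Slc7a5 and Slc7a11, all of the branch of Atf4.

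The spread between libraries had a larger median in the branch of Atf4 than among the genes of the ER, with overlap between single genes. Over Atf4, its stress targets and the amino acid genes (14 genes), the median coefficient of variation of FPKM was 17.3% in Control and 18.9% in GOF, against 16.5% and 15.4% over all genes tested. Over the 22 genes of the ER it was 5.29% and 10.1%. Single genes crossed this division in Control, with 32.6% for Sdf2l1 and 28.2% for Ern1 in the ER but 1.58% for Ppp1r15a and 6.75% for Ddit3 in the branch of Atf4. Of the 14 genes, 10 (71.4%) had the culture of animal 9852 highest in both groups, which 24.8% of all genes did and 7 of the 22 ER genes. GOF replicate 2 was the highest GOF library in 13 of the 14 genes and in 15 of the 22 ER genes (68.2%), against 43.3% of all genes. In 9 of the 14 genes (64.3%) and 10 of the 22 ER genes (45.5%) GOF replicate 1 was lowest and GOF replicate 2 highest of the GOF libraries, against 23.5% of all genes. These are counts over genes measured in the same libraries, which are not independent, and they carry no test. GOF replicate 2 and Control replicate 0 are separate cultures of animal 9852, and the part of the animal was not tested. GOF replicate 1 was the only culture of animal 9843, so for it the animal and the culture cannot be told apart.

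**Figure D3:**
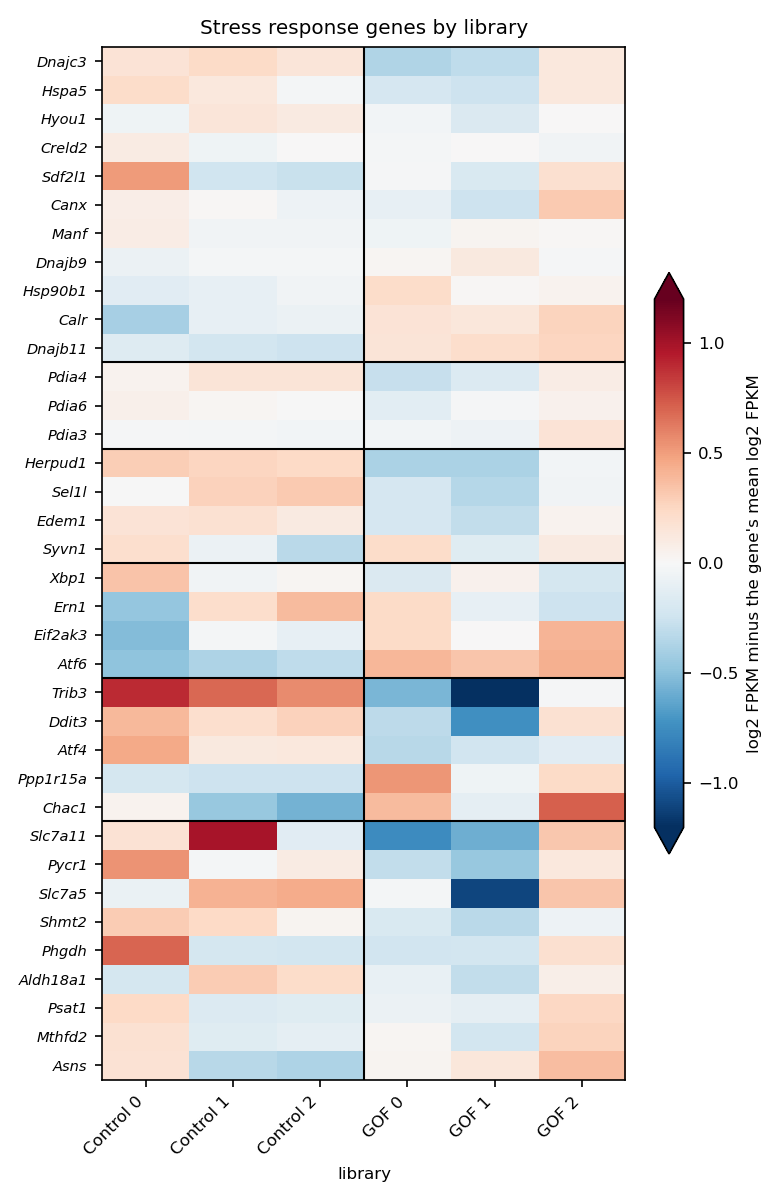
The 36 genes (rows, grouped by role in the order of the text) in the 6 libraries (columns), coloured by log2 FPKM minus the mean log2 FPKM of that gene over all libraries; a black vertical line divides Control from GOF. Trib3 is high in Control and lowest in GOF replicate 1, while Phgdh, Psat1 and Mthfd2 are high in Control replicate 0 and GOF replicate 2.

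Levels differed widely between the genes in Control, on the FPKM scale, which accounts for transcript length. The mean was highest for Calr at 470 FPKM ± 56.5 (SD, n = 3) and next for Hspa5 at 446 ± 37.4, values that lie within the spread of each other. Canx followed at 320 ± 15.7 and Hsp90b1 at 311 ± 9.90, again within their spread. Pdia3 (261 ± 1.40) and Atf4 (211 ± 28.96) came next and did not overlap. The lowest were Syvn1 at 3.42, Ern1 at 2.96 and Slc7a11 at 2.39 FPKM, and the fewest fragments behind any value were 266. Of the sensors, Atf6 was the highest in Control (14.7 ± 0.920) above Eif2ak3 (9.60 ± 1.70) and Ern1, and this order held in GOF (25.0 ± 0.858, 12.9 ± 1.79 and 2.74 ± 0.481).

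A second list of 105 further genes of the same pathways, of which 104 were tested, was read from the same fit. Of them, 9 rose and 11 fell (8.65% and 10.6%, against the 11.1% and 10.2% of all genes), with a median log2 fold change of 0.03. The counts by role below cover few genes each and stand beside these same shares of all genes. Across the 18 cytosolic aminoacyl-tRNA synthetases, which load amino acids onto tRNA and several of which are known Atf4 targets, 3 rose and 0 fell. Rars was at 66.7, 60.9 and 61.1 FPKM in Control and at 108, 108 and 102 in GOF (log2 fold change 0.77, edgeR adjusted p = 0.00561). Cars and Nars rose by log2 fold changes of 0.58 and 0.56 (edgeR adjusted p = 0.00781 and 0.0196). The median of the 18 was 0.21, with 14 estimates above 0.

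Among 17 other ER folding and redox genes, 1 rose and 2 fell. Qsox1, a sulfhydryl oxidase that is also secreted into the matrix, was at 82.9, 79.9 and 75.7 FPKM in Control and at 144, 144 and 161 in GOF (log2 fold change 0.88, edgeR adjusted p = 0.0039). The isomerases Pdia5 and Txndc5 fell by 0.66 and 0.47 on the log2 scale (edgeR adjusted p = 0.0139 and 0.0258). P4hb, the most abundant isomerase of the list, was at means of 532 and 533 FPKM. Of 17 other degradation genes, 1 passed, Nploc4, a cofactor of Vcp (log2 fold change 0.44, edgeR adjusted p = 0.0298). Of 11 other stress transducers tested, 0 rose and 2 fell. They were Crebrf, from 18.7, 18.5 and 19.5 FPKM to 10.9, 11.7 and 14.4 (log2 fold change -0.61, edgeR adjusted p = 0.0088), and Creb3l3, which was under 1 FPKM in all libraries.

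Of 10 other amino acid transporters, 0 rose and 2 fell. Slc1a5 (Asct2, an importer of glutamine) was at 11.7, 17.6 and 21.0 FPKM in Control and at 7.34, 6.77 and 7.25 in GOF (log2 fold change -1.30, edgeR adjusted p = 0.00681). Slc43a1 (Lat3) went from 2.56, 2.58 and 2.52 FPKM to 1.05, 1.11 and 0.867 (log2 fold change -1.23, edgeR adjusted p = 0.00338). Of 13 other amino acid and one-carbon enzymes, 2 rose (Cth, which makes cysteine, and Got1) and 3 fell (Aldh1l2, Aass and Pck2). Aldh1l2, a mitochondrial folate enzyme and a known Atf4 target, was at 24.0, 22.6 and 25.6 FPKM in Control and at 12.5, 11.6 and 16.0 in GOF (log2 fold change -0.84, edgeR adjusted p = 0.00371). Pck2, another known target, had a log2 fold change of -1.01 (edgeR adjusted p = 0.0275), and Cth one of 1.19 (edgeR adjusted p = 0.0265).

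Of 18 eIF2 kinases, phosphatase subunits and Atf4-linked factors, 2 rose and 2 fell. Stc2, a secreted glycoprotein known to be induced in ER stress, was at 1.84, 1.33 and 1.45 FPKM in Control and at 3.85, 3.26 and 3.38 in GOF (log2 fold change 1.31, edgeR adjusted p = 0.00149). Atf3, a stress-induced factor, rose as well, from 1.29, 1.21 and 0.796 FPKM to 1.597, 2.43 and 2.69 (log2 fold change 1.09, edgeR adjusted p = 0.0337). Jdp2 and Cebpb, bZIP factors that can pair with others of the family, each fell by 0.71 on the log2 scale (edgeR adjusted p = 0.0456 and 0.0476). The other eIF2 kinases Eif2ak1, Eif2ak2 and Eif2ak4 did not pass, with estimates of 0.21, -0.46 and -0.11. Of the 20 genes of the second list that passed, 8 passed without each library in turn (Aass, Aldh1l2, Crebrf, Qsox1, Rars, Slc1a5, Slc43a1 and Stc2), and the others lost the call without at least 1 library, with edgeR adjusted p up to 0.134. With animal as a block, Nars, Txndc5, Cebpb and Cth did not pass (edgeR adjusted p = 0.0589, 0.0691, 0.0643 and 0.0506). In the same fit 6 further genes passed, Wars, Wfs1, Slc7a1 and Mthfd1 higher and Prdx4 and Eif2ak2 lower, with edgeR adjusted p from 0.0203 to 0.0473.

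**Figure D4:**
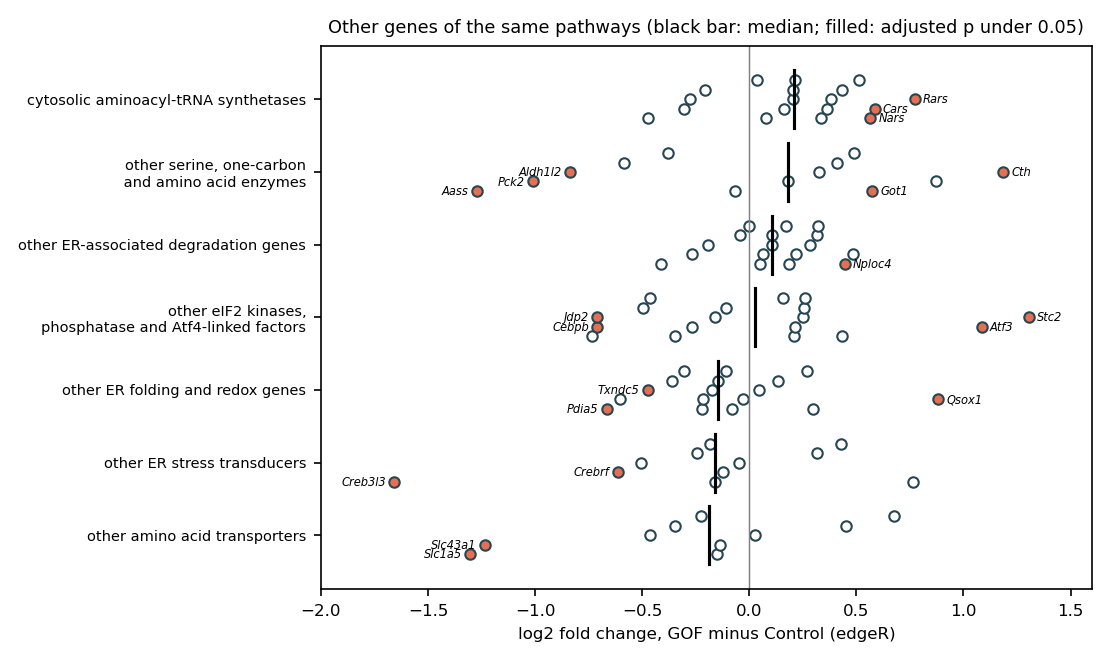
The log2 fold change (x axis, GOF minus Control, edgeR) of the 104 further genes tested, by role; black bars are medians and filled, named points have an adjusted p under 0.05. In every role most points are open, and the aminoacyl-tRNA synthetases have 3 filled points, all right of 0.

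Read by promoter element, the 8 genes with an ERSE included none that passed. Atf6, which has no promoter entry, is not covered by this reading. Of the 10 genes with an ERSE or ERSE-II, 1 rose (Dnajb11) and 1 fell (Herpud1), beside the 11.1% and 10.2% of all genes, and the 10 estimates ran from -0.54 to 0.41, with 4 above 0. Of the 6 with a CARE, beside the same shares of all genes, 2 fell (Trib3 and Herpud1) and 0 rose, and the other 4 did not pass. Herpud1, which has a match to both ERSE-II and CARE, and Dnajb11, which also has a match to ERSE-II, changed in opposite directions. Dnajb11 did not pass with animal as a block (edgeR adjusted p = 0.0706).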

How the data were processed

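Per the labels and the study's methods, the authors prepared stranded libraries of total RNA, aligned paired-end reads to mm10 using TopHat and quantified genes using Cuffdiff. The authors deposited estimated counts, Cuffdiff's unscaled fragments of a gene in a library. The deposited FPKM values are scaled by transcript length and between libraries. Columns of the authors' own comparisons were not used, nor were 2 columns of per-library values. Whether counting used the strand is not given in the sources used here.

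Identifiers were matched to GENCODE on GRCm38 (97.9% of the table), and 32 genes with a failed estimate, none among the 36, were left out. Fragments were rounded (4.95% were not whole) and tested with edgeR 4.0.16 in R 4.3.3 (TMM, filterByExpr, quasi-likelihood F test, Benjamini-Hochberg), with the 6 libraries and no covariate. The code was tested on simulated data. An exact permutation test of 3 against 3 libraries cannot go below a two-sided p of 0.1. Intervals are at 95% and unadjusted. The libraries held 35980831 to 42834467 fragments.

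By the labels, Control and GOF cultures with the same number came from different animals. Deviations from the group mean correlated at -0.41, 0.05 and -0.44 between cultures of the same number. Between cultures of the same animal the correlations were 0.41 and 0.46. Such deviations cancel within a group, so these values depend on each other, and they carry no test. Alternatives were DESeq2 1.42.0, library totals, upper-quartile normalization, no filter, a minimum of 1 FPKM in 3 libraries, limma 3.58.1 on log2(FPKM + 1) and log2(FPKM + 0.1), blocks by label number and by animal, and each library left out. The 36 genes, the second list and the markers were chosen with earlier results of these data known. All 36 genes are named, with up to 3 passing genes per role of the second list, those with the smallest adjusted p. Cebpb, Cth and Pck2, the genes without a change that are named from that list (P4hb, Atf6b and the eIF2 kinases) and the promoter sequences printed were chosen after their values were seen.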

Additional observations from a re-analysis of the deposited data

How the results depend on the processing

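Atf6 passed in all 15 alternatives, and 25 of the 36 genes passed in none. Of the 540 results of a gene under an alternative, 507 stayed on the same side of the threshold, 27 lost the call and 6 gained it. The sign of the estimate was the other one in 32 of them, all in 10 genes that did not pass (Canx, Dnajb9, Manf, Sdf2l1, Ern1, Aldh18a1, Mthfd2, Phgdh, Psat1 and Pdia3). The block by label number, whose numbers do not pair the cultures, gave 1695 genes called in place of 3281, with 1 of the 36 higher in place of 2, 0 lower in place of 3, and in the second list 4 higher in place of 9 and 4 lower in place of 11. Without a filter on low counts, 1 of the 36 was higher. With limma on log2(FPKM + 1), 867 genes passed with a fold change over 2 in place of 1906. The median log2 fold change of the 36, -0.086, was -0.126 with library totals, -0.139 with upper-quartile normalization and -0.026 with the block by animal. That block kept the counts of 2 higher and 3 lower, with Chac1 gained and Dnajb11 lost. It has 1 residual degree of freedom per gene before edgeR shares information between genes. Its group difference rests only on the animals that gave both a Control and a GOF culture. Leaving out 1 library gave 1732 to 3726 genes called, 1 to 3 of the 36 higher, 0 to 3 lower, a median of -0.151 to -0.044, and 3 to 14 higher and 6 to 11 lower in the second list. The lowest count of all genes came without GOF replicate 0, and without Control replicate 1 or GOF replicate 0 none of the 36 fell past the test. Apart from these fits with fewer samples, the cause was not tested. The second list gave 36 genes at an unadjusted p under 0.05, and the 36 genes gave 10.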
